A study of Mus musculus with 27 samples.

Results

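The data come from the E14 line of mouse embryonic stem cells. They describe how each gene's ratio of nucleoplasm to cytoplasm RNA differed between siRNA against Ptbp1 and control siRNA. For every gene and replicate number, log2 of the ratio of nucleoplasm to cytoplasm was taken in the siPTBP1 culture and the same value of the siGFP culture was subtracted. The result, called the shift here, is above 0 where the ratio was higher with siPTBP1. It was computed from 12 of the 27 libraries of the series, on log2(TPM + 1), where TPM is a level per transcript length scaled to a fixed library total. Of 53379 genes in the table, 15185 had at least 1 TPM in at least 3 of the 12 libraries and were tested, leaving out symbols that start with mt-.

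The 4 groups of 3 libraries were cytoplasm (CY) and nucleoplasm (NP) of cells given siRNA against eGFP as a negative control (siGFP) or against PTBP1 (siPTBP1). All cultures were grown on gelatin in medium with LIF, received the same siRNA a second time after 24 h and had 48 h of siRNA treatment in all. The libraries held polyadenylated RNA, and the series calls the replicates biological without saying what a replicate number stands for. The series also holds a double knockdown with siRNA against PTBP1 and PTBP2 and a chromatin fraction (CH), used below only for values side by side.

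The PTBP1 protein binds pyrimidine-rich stretches of RNA, represses exons and keeps some introns in RNA that stays in the nucleus, among them terminal introns of presynaptic genes such as Vamp2. An mRNA leaves the nucleus after splicing, packaging and passage through the nuclear pore. Those that code for secreted and membrane proteins are then translated at the endoplasmic reticulum (ER), whose membrane is continuous with the outer nuclear envelope, so a biochemical nuclear fraction can hold ER-bound mRNA as well as RNA from inside the nucleus.

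Coding starts of 6 genes from both ends of the shift are shown first. Hydrophobic stretches in the encoded protein are used below to class all coding genes. The 6 genes were picked by hand and not by rank, and do not stand for all genes at either end. Scamp5 and Slc3a2, with a smaller p than Hyou1 and Prkcsh, are not among them. The sequences are the first 45 codons of the spliced coding sequence, 5′ to 3′, from GENCODE M21 on GRCm38. Capitals mark the most hydrophobic window of 12 codons among these 45, and the score of a window is its mean Kyte-Doolittle hydropathy, on which higher is more hydrophobic. Among genes with the smallest p for a higher ratio, Col18a1 (chromosome 10, 77052178 to 77166548, minus strand), a basement membrane collagen, scored 2.65, the ER chaperone Hyou1 (chromosome 9, 44379490 to 44392369, plus strand) 2.87, and Prkcsh (chromosome 9, 22002806 to 22014222, plus strand), the beta subunit of ER glucosidase II, 3.08. Among genes called lower, the actin-binding Tagln (chromosome 9, 45929619 to 45936058, minus strand) scored 0.87, the myosin light chain Myl9 (chromosome 2, 156775420 to 156781658, plus strand) 0.21 and the tropomyosin Tpm1 (chromosome 9, 67022590 to 67049406, minus strand) -0.40.
Col18a1: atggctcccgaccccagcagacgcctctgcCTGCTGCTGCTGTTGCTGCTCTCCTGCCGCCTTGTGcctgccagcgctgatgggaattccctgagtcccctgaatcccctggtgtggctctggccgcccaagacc
Hyou1: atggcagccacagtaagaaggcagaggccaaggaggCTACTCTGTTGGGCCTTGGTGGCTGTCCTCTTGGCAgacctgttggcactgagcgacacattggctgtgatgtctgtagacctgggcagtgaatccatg
Prkcsh: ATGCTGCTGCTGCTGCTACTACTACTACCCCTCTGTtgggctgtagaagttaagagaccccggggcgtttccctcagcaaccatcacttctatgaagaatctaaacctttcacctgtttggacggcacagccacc
Tagln: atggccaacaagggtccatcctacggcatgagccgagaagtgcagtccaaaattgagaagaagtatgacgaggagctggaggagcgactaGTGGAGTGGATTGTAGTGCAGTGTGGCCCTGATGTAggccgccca
Myl9: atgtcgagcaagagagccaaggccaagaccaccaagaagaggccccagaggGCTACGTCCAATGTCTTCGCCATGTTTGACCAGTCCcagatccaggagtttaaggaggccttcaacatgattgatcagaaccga
Tpm1: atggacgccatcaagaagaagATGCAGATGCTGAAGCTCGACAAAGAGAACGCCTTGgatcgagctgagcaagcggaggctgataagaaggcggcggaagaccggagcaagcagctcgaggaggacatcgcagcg

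Across the 12 libraries 12210 to 14999 genes reached 1 TPM, and the 8 embryonic stem cell markers summed to 4070 to 4340 TPM in siGFP CY and 3220 to 3720 in siPTBP1 CY, and to 4110 to 4330 against 3020 to 3810 in NP. The sums were lower with siPTBP1 without overlap in both fractions, and their part in the results below was not tested. They do not stand for each marker. In CY Dppa5a had 1840, 1680 and 1640 against 1320, 1040 and 1130 TPM, without overlap. Pou5f1 had 1580, 1320 and 1440 against 1870, 1240 and 1390 there, which overlapped. RNA of the mitochondrial genome made up 0.0416 to 0.111% of TPM in CY and 9.31 to 20.2% in NP. The nuclear RNAs fixed as fraction markers summed to 35.9 to 67.4 TPM in CY and 137 to 349 in NP. TPM keeps no read depth, so the depth behind each value is unknown. Ptbp1 itself stood at 502, 534 and 611 TPM in siGFP CY (replicates 1 to 3) and at 144, 115 and 110 in siPTBP1 CY. In NP it was at 484, 287 and 401 against 136, 88.6 and 89.2. Ptbp1 was lower with siPTBP1 in both fractions with no overlap, and its shift of 0.26 was not called (limma adjusted p = 0.252). The paralogs Ptbp2 and Ptbp3 had shifts of -0.47 and -0.49, also not called (limma adjusted p = 0.129 and 0.135).

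The median shift of all genes was -0.16, with -0.15, -0.12 and -0.18 in replicates 1 to 3, and the interquartile range ran from -0.34 to 0.05. In all 3 replicates 5759 genes had a negative shift and 1528 a positive one. This median depends on scaling: with TPM rescaled after leaving out mitochondrial RNA and Mir6236, the gene of highest share in CY, it was -0.11, and with median-ratio scaling 0.02. Gene groups are therefore described against the all-gene median. The median shift also varied with level. It was 0.01 for genes under 1 TPM on average, -0.23 for those of 30 to 100 TPM and -0.20 for those of at least 300 TPM.

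With limma on the 3 paired shifts and Benjamini-Hochberg adjustment over the 15185 genes, 21 genes (0.138%) were called at an adjusted p under 0.05. The ratio rose in 8 (0.0527%) and fell in 13 (0.0856%). All 8 that rose and 5 that fell have a longest transcript under 200 nt. The 8 protein-coding genes called all fell. At an unadjusted p under 0.05 there were 3542 genes (23.3%). The call count was 0 without replicate 1, 80 without replicate 2 and 2 without replicate 3, so among these 15185 genes no call was kept without the replicate 1 libraries. It was 9 when the replicate numbers were not used as a block: 5 of these are among the 21, all of them RNAs under 200 nt, and the 8 coding genes and Snord70 were not called (limma adjusted p = 1.0 for each). An exact sign-flip permutation test on 3 pairs cannot go below a two-sided p of 0.25 for any single gene.

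A filter of at least 5 TPM in at least 6 of the 12 libraries left 9591 genes, of which 731 (7.62%) were called, 70 higher (0.73%) and 661 lower (6.89%). Adding median-ratio scaling gave 89 calls (0.928%), with 76 higher (0.792%) and 13 lower (0.136%). The split of calls between directions thus turned with the scaling. The 8 earlier calls that passed the stricter filter were called under both. This filter is called the stricter filter below. Without the replicate block the stricter filter gave 0 calls, with 87 genes at an unadjusted p under 0.05. Leaving out replicate 1, 2 or 3 under it gave 21, 1481 or 82 calls, with the same 8 genes called each time.

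Genes of the contractile actin cytoskeleton made up 4 of the 8 coding genes in which the ratio fell. Tpm1 (ENSMUSG00000032366), a tropomyosin that winds along actin filaments, stood at 55.3, 72.7 and 88.3 TPM in siGFP CY and at 253, 277 and 391 in siPTBP1 CY. In NP it was at 173, 151 and 166 against 307, 262 and 336. Both fractions were higher with siPTBP1 in every replicate without overlap, and CY more so. In such bulk RNA a change in the number of cells of a type and a change in RNA per cell cannot be told apart. The ratio of Tpm1 fell by 1.35, 1.13 and 1.12 on the log2 scale, a mean shift of -1.20 (SE 0.0899, limma adjusted p = 0.0433, and 0.00128 under the stricter filter).

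Tagln (ENSMUSG00000032085), the smooth muscle protein transgelin, had 20.2, 7.42 and 12.9 TPM in siGFP CY and 89.8, 60.8 and 98.5 with siPTBP1. Its NP values were 128, 43.6 and 63.2 against 210, 85.6 and 124. The CY groups did not overlap, whereas the NP groups did, with replicate 1 high in both. The mean shift of Tagln was -1.72 (SE 0.137, limma adjusted p = 0.0433, from -1.38, -1.92 and -1.87). Pcsk7 overlaps it on the other strand.

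Myl9 (ENSMUSG00000067818), a regulatory light chain of non-sarcomeric myosin, had 12.3, 3.61 and 9.84 TPM in siGFP CY and 98.1, 66.8 and 138 with siPTBP1, and 23.2, 7.85 and 16.7 against 81.7, 46.8 and 73.2 in NP. Neither fraction overlapped. In siGFP every replicate had a higher Myl9 TPM in NP than in CY. With siPTBP1 every replicate had the higher TPM in CY. Its shift was -1.39 (SE 0.135, limma adjusted p = 0.0433). Tpm4 (ENSMUSG00000031799), another tropomyosin, had 31.1, 66.5 and 53.5 TPM against 72.7, 164 and 172 in CY, without overlap, and 56.3, 81.4 and 74 against 59.9, 106 and 121 in NP, with overlap. The ratio of Tpm4 fell by 1.12, 0.90 and 0.96, a mean of -0.99 (limma adjusted p = 0.0433). A pair of predicted genes overlaps Tpm4 on the other strand.

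These were the 4 called of 34 tested members of the list of actin cytoskeleton and SRF target genes, 37 in all, whose transcription in part depends on serum response factor. Over all genes tested 0.0856% were called lower. The median of the list was -0.29, beside -0.16 for all genes, and 24 of the 34 lay below the all-gene median. Coding genes without a hydrophobic stretch, a class described further on, had a median of -0.24, and 6024 of 9534 lay below the all-gene median. The list median was thus close to that of this class. Acta2, smooth muscle actin, had 4.93, 2.37 and 6.46 TPM against 51, 69.5 and 124 in CY and 40.3, 24.9 and 40.6 against 165, 143 and 193 in NP, with a shift of -1.63 that was not called (limma adjusted p = 0.0594). The calponins Cnn1 (-1.47) and Cnn2 (-0.84) and the focal adhesion protein Zyx (-0.87) were not called either. With the stricter filter 11 of 32 members were called, all lower, beside 6.89% of all genes called lower, and 6 with median-ratio scaling added, all lower, beside 0.136%. The formin Fmnl3 stood on the other side, with 13.7, 12.9 and 14.2 TPM against 2.85, 2.52 and 1.96 in CY and 13.4, 10.6 and 11.8 against 4.07, 4.72 and 2.58 in NP. Its shift was 0.64 (not called, limma adjusted p = 0.128): both fractions were lower with siPTBP1 without overlap, and CY more so. In the median member the list was higher with siPTBP1 by 0.42 in CY and by 0.29 in NP on the log2 scale.

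Other coding genes called were also lower in ratio. Dusp6 (ENSMUSG00000019960), a phosphatase that switches off ERK, had 28.2, 49.5 and 49.3 TPM in siGFP CY and 66.3, 86.6 and 111 with siPTBP1, without overlap. In NP it had 49.3, 51.6 and 58.4 against 49.6, 41.9 and 58.6, which overlapped. The shift was -1.14 (SE 0.0971, limma adjusted p = 0.0433), made up of 1.05 in CY and -0.09 in NP. Car2 (ENSMUSG00000027562), a carbonic anhydrase, had 59.2, 61.4 and 81.1 against 95.8, 106 and 155 TPM in CY and 87.5, 73.2 and 99 against 68.8, 64.6 and 99.4 in NP. The CY groups of Car2 were apart and the NP groups overlapped, with a shift of -0.97 (limma adjusted p = 0.0433). Greb1l (ENSMUSG00000042942), a cofactor of retinoic acid signalling, was low, at 0.75 to 6.24 TPM in the 12 libraries. Its CY values overlapped, its NP values were lower with siPTBP1 without overlap, and its shift was -1.83 (limma adjusted p = 0.0433). The snoRNA Snord70 (ENSMUSG00000077345, 87 nt, inside the gene Nop58) was listed at 0 in all siGFP CY libraries and in 1 of siPTBP1, which otherwise gave 5.01 and 5.03. In NP it was at 10.7, 40.4 and 20.4 against 0, 28.5 and 13.9 TPM. Snord70 had a shift of -3.25 (limma adjusted p = 0.0343), which in replicate 1 came from NP and in replicates 2 and 3 mostly from CY.

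Of 22 RNAs known for splicing or retained introns under PTBP1 control 21 were tested, and Tpm1, described above, is one of them. Vamp2, a synaptobrevin of synaptic vesicle fusion, had 13.2, 20.1 and 16.2 against 37.4, 60.2 and 62.8 TPM in CY and 22.4, 29 and 18.3 against 42.7, 40.1 and 34.7 in NP. The groups were apart in both fractions and the shift of -0.87 was not called (limma adjusted p = 0.104, 0.0333 under the stricter filter). Kif5a, a neuronal kinesin, was at -0.44 and also not called (limma adjusted p = 0.189). Sv2a, a synaptic vesicle glycoprotein, did not share the sign: it had 0.52, 1.71 and 0.9 against 2.87, 2.57 and 2.69 TPM in CY and 4.78, 7.44 and 4.71 against 14.4, 18.8 and 14.2 in NP. Both fractions of Sv2a were higher with siPTBP1, and its shift was 0.45 (not called, limma adjusted p = 0.252). The median of these 21 genes was -0.28, and that of 17 tested presynaptic genes was -0.19.

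**Figure D1:**
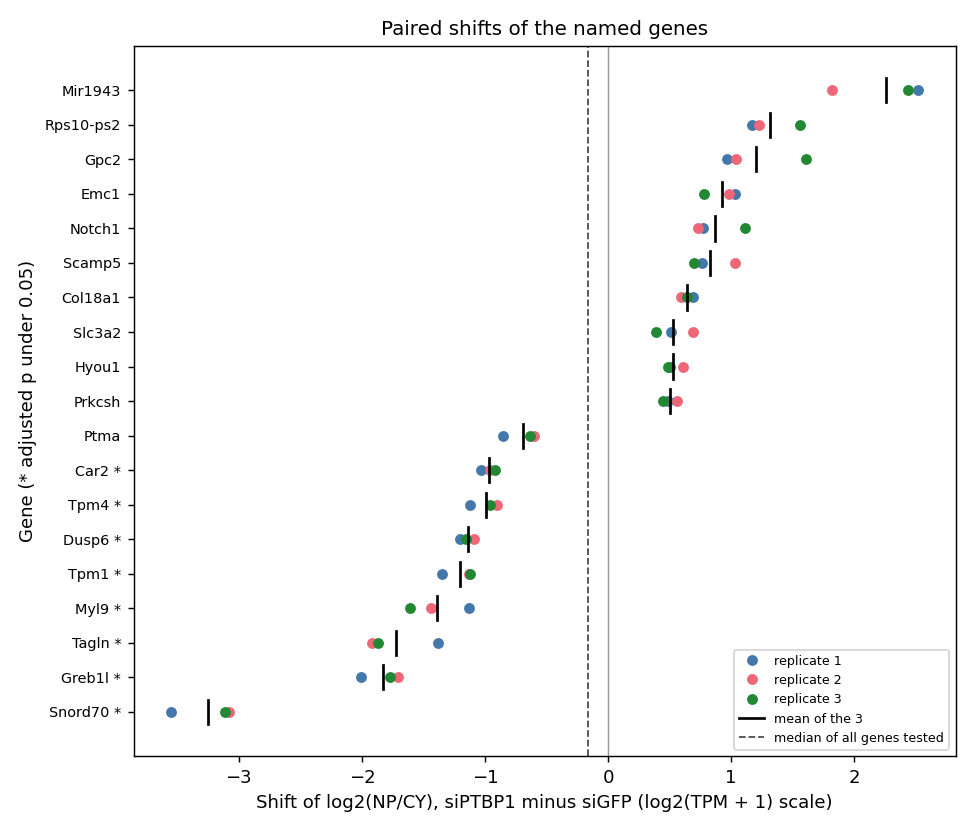
Shift of log2(NP/CY), siPTBP1 minus siGFP, on the log2(TPM + 1) scale for the genes named by size or p. Dots are the 3 replicate numbers, black ticks their means, and stars mark an adjusted p under 0.05. The 8 starred genes all lie left of the all-gene median of -0.16, and no gene on the right is starred.

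No coding gene was called higher, so the genes with the smallest p are given as values. Col18a1 (ENSMUSG00000001435) had 23, 18.7 and 23.3 TPM in siGFP CY and 21.9, 21.6 and 22.4 with siPTBP1, which overlapped. In NP it stood at 346, 242 and 250 against 534, 418 and 376, without overlap. The shift of Col18a1 was 0.64 (0.69, 0.59 and 0.64, SE 0.0893), with a limma adjusted p of 0.102, of 0.0333 under the stricter filter and of 0.0145 with median-ratio scaling added. Slc19a1 overlaps it on the other strand.

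Col18a1 was the lowest in p of the laminins, collagens and integrins, proteins of the basement membrane and its receptors, of which 28 of 29 were tested. All 28 lay above the all-gene median and 26 did so in each replicate. The median was 0.50, beside -0.16 for all genes. No member was called. Under the stricter filter 7 of 25 were higher, beside 0.73% of all genes, and 4 with median-ratio scaling added, beside 0.792%. These RNAs already had higher TPM in NP than in CY: their median log2 ratio was 2.90 in siGFP and 3.42 in siPTBP1. TPM is scaled within each library, so the ratio does not give the split of total RNA between the fractions. The median NP difference was 0.49 and that of CY 0.01.

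Within this group the fibronectin gene Fn1 had 342, 535 and 288 TPM in NP of siGFP and 446, 689 and 355 in siPTBP1, and 13.1, 32.5 and 22.3 against 12.8, 30.5 and 17.2 in CY. The groups overlapped in both fractions, while the shift was 0.41, 0.45 and 0.66. Col4a2, a chain of the main basement membrane collagen, had 13.7, 15.7 and 12.9 against 28.5, 31.7 and 22.2 TPM in NP, without overlap, and a shift of 0.81 (limma adjusted p = 0.105). Lama5 had the largest shift of the list, 1.24, but with 2.47 in replicate 1 and 0.74 and 0.52 in the others (limma adjusted p = 0.235). Itga3, an integrin chain, was the lowest at -0.02. Collagens are also markers of fibroblasts: the 7 fibroblast markers summed to 32.5 to 53.8 TPM in siGFP NP and 40.8 to 77.9 in siPTBP1 NP, with 10.5 to 15.8 and 7.66 to 14.7 in CY. None of the 7 was at 0 in all 12 libraries, but 2 of them, Dcn and Lum, were under 1 TPM in all 12. The part of these markers in the result was not tested.

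ER proteins that translocate, fold and glycosylate new chains showed the same sign with smaller values. Of 52 genes, all tested, 49 lay above the all-gene median and 36 in each replicate. The list's median was 0.16 and none was called. Under the stricter filter 4 of 51 were higher, beside 0.73% of all genes. With median-ratio scaling added 10 were higher, beside 0.792%, and none was lower in either setting. Emc1 (ENSMUSG00000078517), a subunit of the complex that inserts membrane proteins, had 35.6, 32.5 and 29.8 TPM in siGFP NP and 88.8, 80.7 and 63.3 in siPTBP1 NP, without overlap. In CY it was at 2.47, 3.29 and 3.38 against 3.17, 4.3 and 4.33, which overlapped. Its shift was 0.93 (limma adjusted p = 0.104), and Ubr4 overlaps it on the same strand.

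Hyou1 (ENSMUSG00000032115) had 196, 198 and 162 TPM in siGFP NP and 327, 328 and 254 in siPTBP1 NP, with 12.6, 16.3 and 16.3 against 14.9, 17.7 and 18.2 in CY. Prkcsh (ENSMUSG00000003402) had 209, 173 and 154 against 353, 262 and 237 in NP and 19.5, 29.9 and 20.8 against 23.6, 30.6 and 23.4 in CY. Both were apart in NP and overlapped in CY, with shifts of 0.53 and 0.50. Rpn1, a ribophorin of the oligosaccharyltransferase, was also at 0.53. The abundant chaperone Hspa5 was at 0.33, the translocon channel Sec61a1 at 0.25 and calnexin, Canx, at 0.28. Srp54a, whose protein binds signal sequences in the cytosol, was the lowest of the list at -0.53.

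Of 40 genes for surface receptors and adhesion proteins 38 lay above the all-gene median, with a list median of 0.25 and none called. Under the stricter filter 3 of 37 were higher, beside 0.73% of all genes. Notch1, a receptor of cell fate decisions, had 17.9, 23.5 and 14.3 against 26.7, 35.4 and 22.3 TPM in NP, which overlapped, and a shift of 0.87. The amino acid transporter chain Slc3a2 (0.53) and the glucose transporter Slc2a1 (0.38) were nearer the list median. Fgfr2 and Notch2 were the 2 below the all-gene median, at -0.39 and -0.37. Also named by p were Scamp5, a secretory carrier membrane protein (0.83), the glypican Gpc2 (1.20), the 73 nt Mir1943 (2.26), which lies inside Tmem184b, and the pseudogene Rps10-ps2 (1.32), whose reads may come from its parent gene. None of these 4 was called.

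**Figure D2:**
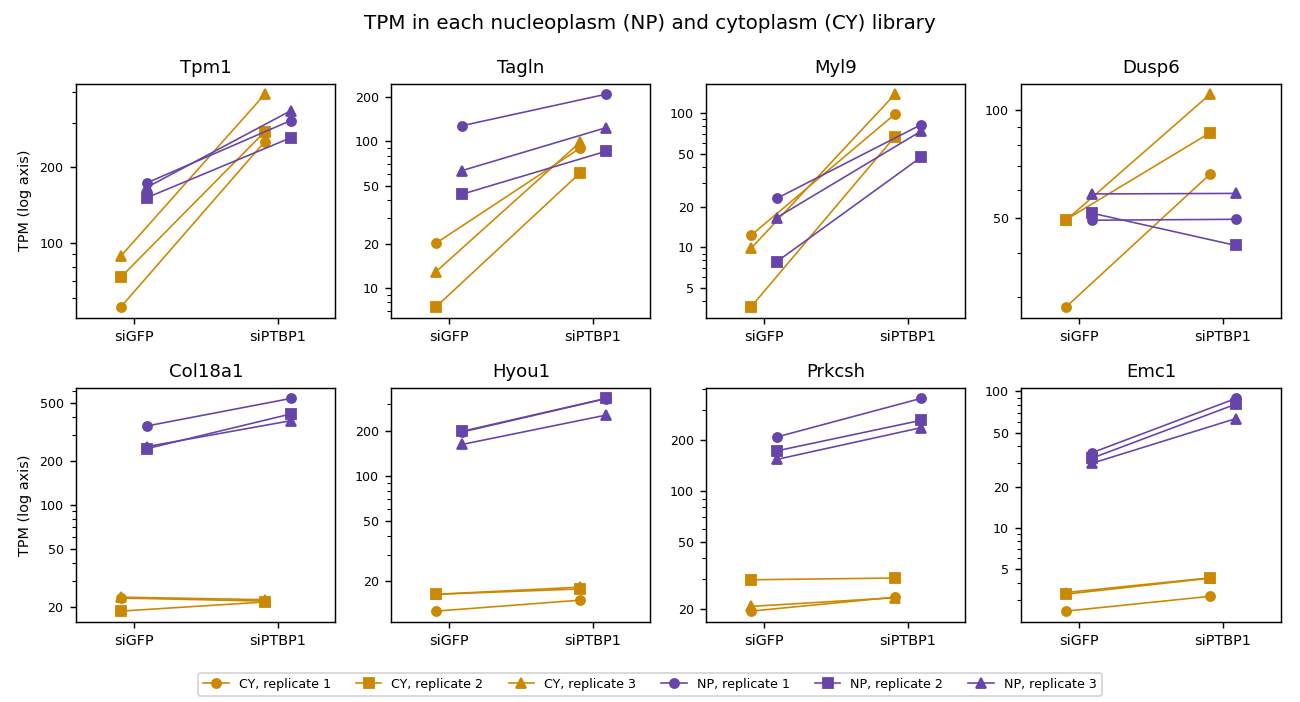
TPM on a log axis in each library of siGFP and siPTBP1, with CY in orange, NP in purple and a line for each replicate number. In the upper row the CY lines climb more steeply than the NP lines; in the lower row the NP lines climb and the CY lines are nearly level, as for Col18a1 with 18.7 to 23.3 TPM in siGFP CY and 21.6 to 22.4 in siPTBP1 CY.

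RNAs of nuclear RNA-binding proteins lay at the other end. All 28 genes for hnRNP proteins, which coat nascent RNA, were below the all-gene median, 23 of them in each replicate. Their median was -0.48, with an NP difference of -0.37 and a CY difference of 0.10. None was called, and under the stricter filter 18 of 28 were lower, beside 6.89% of all genes, but 0 of 28 with median-ratio scaling added. Hnrnpa2b1 had 436, 757 and 879 TPM in siGFP NP and 309, 506 and 648 in siPTBP1 NP. In CY it was at 350, 862 and 856 against 356, 974 and 995. The groups overlapped in both fractions, with replicate 1 low throughout, while the shifts were -0.52, -0.76 and -0.66 (mean -0.64, limma adjusted p = 0.0744). Tardbp, a repressor of cryptic exons, was at -0.61 (limma adjusted p = 0.088), and Hnrnpu, a nuclear scaffold protein, at -0.59.

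All 18 genes for SR splicing factors, which bind exonic enhancers, were also below the all-gene median, with a median of -0.42. Srsf1 had 143, 269 and 322 against 97.7, 206 and 247 TPM in NP and 135, 368 and 470 against 145, 409 and 508 in CY, with shifts of -0.65, -0.54 and -0.50. Here too the groups overlapped, and the pairs did not differ in sign. Under the stricter filter 9 of 17 were lower, beside 6.89% of all genes, and 0 with median-ratio scaling added. CLK and SRPK kinases and other genes with detained introns had a median of -0.34 (28 of 36 below the all-gene median). Of these, 9 of 34 were lower under the stricter filter, beside the same 6.89%. Factors of mRNA export, THO and nuclear surveillance had a median of -0.34 as well (44 of 50 below), with 8 of 47 lower, beside 6.89% of all genes. The export receptor Nxf1 itself was at -0.10. Both groups had 0 calls with median-ratio scaling added.

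**Figure D3:**
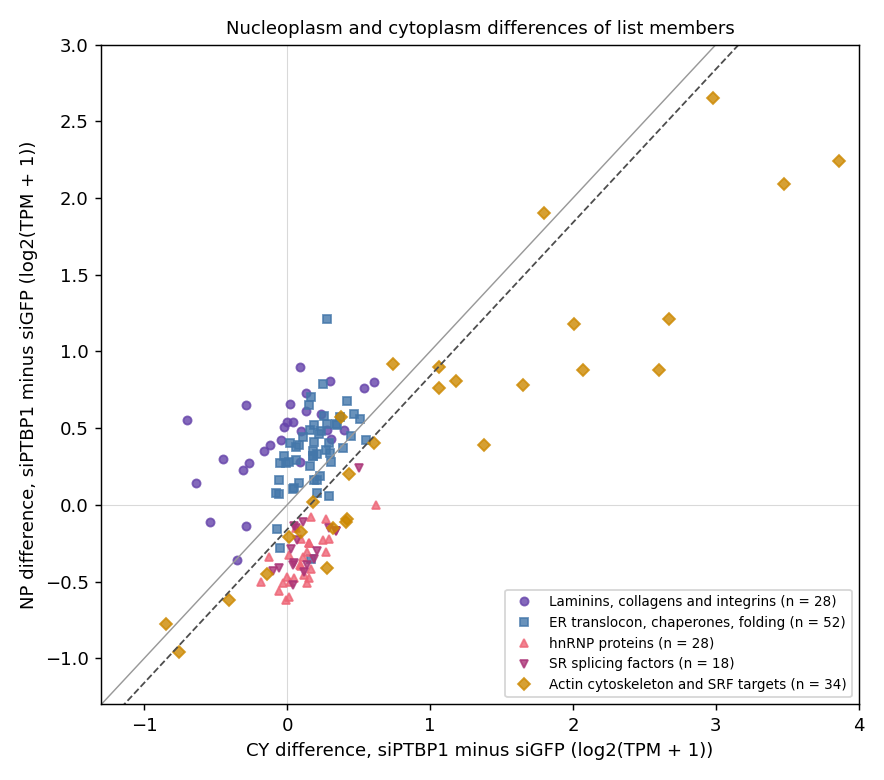
Mean NP difference against mean CY difference, siPTBP1 minus siGFP on log2(TPM + 1), for each tested member of 5 gene lists. The solid line marks equal differences and the dashed line the all-gene median shift of -0.16. Members of the laminin and ER lists lie above the dashed line (28 of 28 and 49 of 52), hnRNP and SR members below it, and the actin genes with the largest differences lie to the right.

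The remaining lists are given by their medians. The 18 tested immediate early genes had a median of -0.35, with 14 below the all-gene median. Dusp6 was the 1 called, beside 0.0856% of all genes called lower. Myc was at -0.54 and Atf3 at -0.87, both not called. The 79 genes for cytosolic ribosomal proteins had a median of -0.18, with Rpl4 at -0.47, and the 21 gene entries for glycolysis enzymes one of -0.17. The 57 nuclear-encoded respiratory chain genes had a median of -0.02, with Uqcrc1 at 0.43 and Uqcrfs1 at -0.40. The 26 genes of cholesterol synthesis and uptake had a median of 0.06: the sterol sensor partner Scap, a membrane protein, was at 0.65 and the cytosolic synthase Hmgcs1 at -0.57.

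Pluripotency genes (31 tested) had a median of -0.15, neural progenitor and neuronal regulators (24) one of -0.19, p53 and its targets (22) one of -0.23 and interferon response genes (18) one of -0.07. Nuclear noncoding RNAs (28), such as Meg3 at -0.32, had a median of -0.09. The replication-dependent histones (44 tested), most of whose RNAs lack a polyA tail, were at -0.04. Markers of primitive and visceral endoderm (6 tested), trophoblast (8), fibroblasts (7) and two-cell-stage-like cells (6) had medians of -0.08, -0.43, 0.34 and -0.06. This fibroblast list names 10 genes and is not the same as the 7 markers summed above. Krt8, a keratin of trophoblast, was at 213 TPM in siGFP NP and 237 in siPTBP1 NP of replicate 1 but at 27.8 to 42.4 in the other NP libraries.

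**Figure D4:**
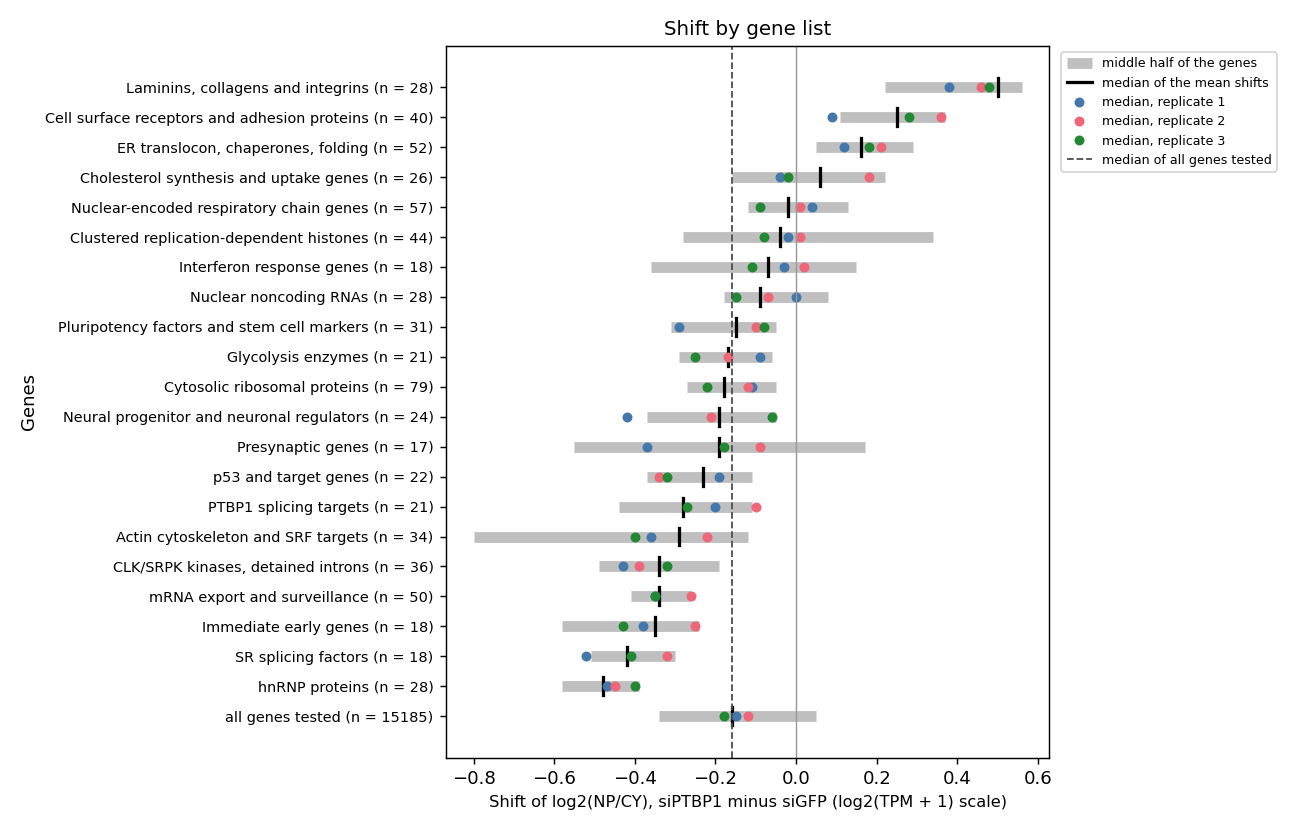
Median shift of each gene list with at least 15 tested members, overall (black tick) and by replicate (dots), with grey bars for the interquartile range of the members, on the log2(TPM + 1) scale. The laminin, surface receptor and ER lists lie right of 0 in every replicate, and the hnRNP and SR lists lie left of the all-gene median of -0.16 in every replicate.

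All coding genes were then classed from sequence alone by the property shown in the coding starts. A start stretch is a window of 12 residues among the first 45 with a mean hydropathy of at least 2.0, as signal peptides often have, and a later stretch is 19 residues after that, as in a membrane span. Of 12753 coding genes with a translated start, 943 had both, and their median shift was 0.13 (0.09, 0.19 and 0.13 by replicate). The 1180 with a start stretch only had 0.06 and the 1096 with a later stretch only 0.02. The 9534 without a stretch had -0.24 (-0.24, -0.20 and -0.26). Above the all-gene median lay 87.6%, 76.8%, 73.2% and 36.8% of the 4 classes in that order. None of the 943 and none of the 1180 was called, beside 0.138% of all genes.

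Under the stricter filter, of 1904 genes with any stretch 45 were called higher and 20 lower. Of 7081 without one, 13 were called higher and 601 lower. The shares over all 9591 genes were 0.73% higher and 6.89% lower. With median-ratio scaling added the counts were 51 and 0 against 18 and 10. The shares over all 9591 genes were then 0.792% higher and 0.136% lower. Cut-offs of 1.8 and 2.2 in place of 2.0 gave medians of 0.03 and 0.09 for genes with a stretch and -0.24 and -0.23 without. The median NP difference was 0.21 with a stretch and -0.12 without, while the CY differences were 0.14 and 0.11. The medians of the classes thus lay apart in NP and close together in CY.

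**Figure D5:**
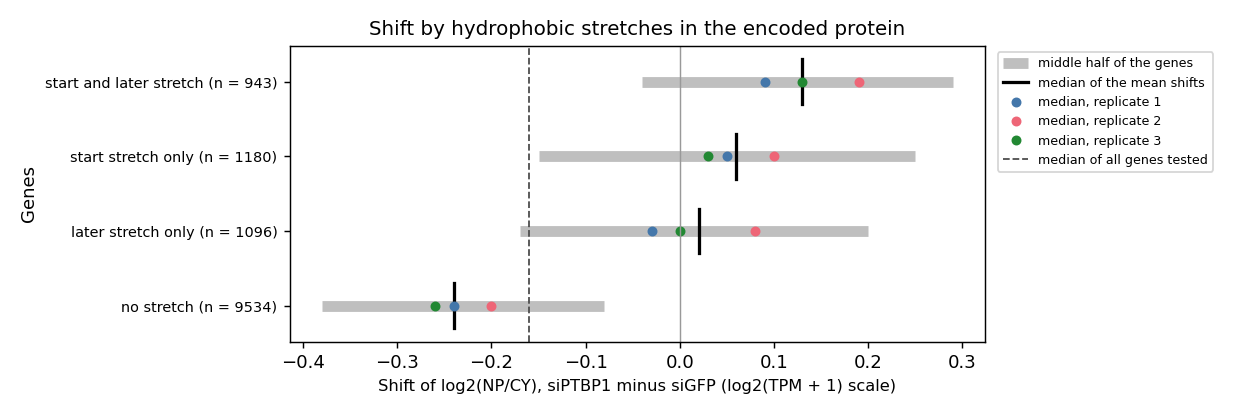
Median shift of coding genes by hydrophobic stretches in the encoded protein, overall (black tick) and by replicate (dots), with grey bars for the interquartile range of the genes, on the log2(TPM + 1) scale. The class with both stretches lies at 0.13 and the class with none at -0.24, with no overlap between their replicate medians.

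The relation to GC content of the longest transcript differed between replicates. Among coding genes of at least 5 TPM on average the median over quintiles of GC ran from -0.26 and -0.27 in the lowest 2 to -0.12 in the highest. From the lowest quintile to the highest it was -0.39 and -0.06 in replicate 2 but -0.17 and -0.25 in replicate 3, and in replicate 1 it was -0.15 and -0.02 with -0.36 between them. Within each of those quintiles genes with a stretch had a higher median than those without, by 0.29 to 0.34, and within quintiles of mean TPM by 0.29 to 0.40. Medians over quintiles of transcript length ran from -0.24 to -0.15 and over quintiles of intron number from -0.25 to -0.19. For length the direction also differed between replicates. The shortest and longest quintiles were at -0.09 and -0.31 in replicate 1, -0.09 and -0.18 in replicate 2, but -0.25 and -0.15 in replicate 3.

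Genes with any stretch held 9.90, 10.02 and 9.09% of TPM in siGFP NP and 12.4, 12.2 and 10.7% in siPTBP1 NP, without overlap. In CY they held 4.29, 5.15 and 4.67% against 4.97, 5.24 and 5.09%, which overlapped. The ER list alone held 0.972, 1.09 and 1.02% of NP in siGFP and 1.34, 1.51 and 1.39% in siPTBP1. Mitochondrial RNA, which is not nuclear, held 9.68, 15.6 and 13.7% of siGFP NP and 9.31, 20.2 and 19.3% of siPTBP1 NP. In replicate 1 its share of NP was thus slightly lower with siPTBP1, whereas that of the ER list was higher. Its share of CY in replicate 1 was also lower, at 0.0511% in siGFP and 0.0416% in siPTBP1. Taken as NP over CY, the mitochondrial share was higher with siPTBP1 in each replicate, by 0.24, 0.28 and 0.49 on the log2 scale. The 29 mt- genes that pass the filter and were left out had a median shift of 0.64, with 0.60, 0.68 and 0.58 by replicate. Whether the NP fractions differ in ER or mitochondria carried with them was not tested, and with whole-fraction RNA more ER in NP and more RNA inside the nucleus cannot be told apart.

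The double knockdown shares the siGFP libraries and the chromatin comparison the CY libraries, so their shifts are given only beside those above. The median NP/CY shift in the double knockdown was -0.07 for all genes, 0.46 for laminins, collagens and integrins, 0.36 for the ER list, 0.37 for surface receptors, -0.22 for hnRNP and -0.05 for SR genes. By replicate the hnRNP medians were 0.09, -0.44 and -0.32 and the SR medians 0.29, -0.35 and -0.23, so replicate 1 had the other sign and sets the SR value near 0. No gene was called there by limma, with 2255 of 15185 at an unadjusted p under 0.05, and without replicate 2 the count was 52. Tpm1 was at -0.82, Tagln at -1.34, Myl9 at -1.29, Col18a1 at 0.44 and Emc1 at 0.86. Replicate 1 was nearer 0 in Tpm1, at -0.39 against -1.08 and -0.99, and Dusp6 had 0.09, -0.96 and -1.04. For chromatin against CY the siPTBP1 medians were -0.02 for all genes, -0.04 for the laminin list, 0.11 for the ER list, 0.01 for surface receptors and -0.02 for hnRNP genes. Replicate 1 again stood apart there, at 0.42 against -0.08 and -0.04 for the ER list and at 0.23 against -0.14 and -0.07 for hnRNP genes. Tagln was at -2.45, Tpm1 at -1.58 and Myl9 at -1.54 in that comparison, whereas Col18a1 was at 0.00 and Hyou1 at -0.02. Genes with both stretches and genes with none had medians of -0.04 each for chromatin against CY, and 0.15 and -0.13 for NP against CY in the double knockdown.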

How the data were processed

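The authors deposited a table of TPM per gene for all libraries; STAR, kallisto and mm10 are named in the submitters' processing notes, and the roles of the tools are not given in the sources used. Symbols, coordinates, lengths and coding sequences came from GENCODE M21 (GRCm38), which held 53274 of the 53379 gene IDs. Shifts on log2(TPM + 1) were fitted with limma 3.58.1 in R 4.3.3 as the mean of the 3 paired values (2 residual degrees of freedom, moderated with trend and robustness, both sides tested, Benjamini-Hochberg over all genes tested).

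The pairing by replicate number was set by rule, and correlations between libraries are given beside it. Libraries of one number had deviations from their group means that correlated at 0.259 or more in all 18 pairs (median 0.474). Pairs of other number and group correlated at 0.149 or less (median -0.346), and 12 of 12 libraries correlated best with their own number. Deviations sum to 0 within a group, so positive correlations within a number bring negative ones between numbers. The contrast is thus partly built in. The paired shifts themselves correlated only weakly between replicate numbers, at 0.0726 to 0.135 across the 15185 genes. P-values of the paired fit measure how far the paired shifts spread between replicate numbers. Differences shared by all libraries of a number cancel in the pairing and are not part of that spread. In simulated data with 100 genes changed by each size, the test recovered 6% of log2 shifts of 1 and 53% of shifts of 2 among 15185 genes, and 44% and 79% among 9591.

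Genes were named by rule: called genes with 3 shifts of one sign, at least 1 TPM on average in each fraction and an established symbol, filled to 10 a direction by the smallest p, plus the PTB family and up to 6 called and 4 uncalled members of each list. Genes named as the lowest or highest of a list, and Fgfr2, Notch2, Sv2a, Kif5a, Fmnl3, Hnrnpu, Col4a2, Hspa5, Sec61a1, Canx and Nxf1, were chosen after their values were seen. The 26 gene lists, the classes and the members were chosen with earlier results of these data known. The stricter filter was planned and its combinations were added after seeing the data. One called gene is counted but not reported here. The double knockdown and CH served only for comparison.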

Additional observations from a re-analysis of the deposited data

Results flagged for a closer look

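In 8 named genes the effect of siPTBP1 differed between the fractions, by the test of the difference itself (the paired shift, limma with Benjamini-Hochberg adjustment, adjusted p between 0.0343 and 0.0433). The NP effect minus the CY effect was -3.25 for Snord70, -1.83 for Greb1l, -1.72 for Tagln, -1.39 for Myl9, -1.20 for Tpm1, -1.14 for Dusp6, -0.99 for Tpm4 and -0.97 for Car2. In Tagln, Myl9, Tpm1 and Tpm4 the mean differences between siPTBP1 and siGFP were above 0 in both fractions: 2.60 in CY and 0.88 in NP for Tagln, 3.48 and 2.09 for Myl9, 2.07 and 0.88 for Tpm1, and 1.38 and 0.39 for Tpm4. In Dusp6, Car2, Greb1l and Snord70 they were above 0 in CY and below 0 in NP, at 1.05 and -0.09, 0.80 and -0.17, 1.09 and -0.74, and 1.73 and -1.52. None of the 8 was called without the replicate block (adjusted p = 1.0 for each) or with median-ratio scaling over 15185 genes (adjusted p between 0.0619 and 0.0765). Without replicate 1 none of the 8 was called among 15185 genes (2727 genes at an unadjusted p under 0.05), and the 7 of them that pass the stricter filter, Snord70, Tagln, Myl9, Tpm1, Dusp6, Tpm4 and Car2, were called there without it.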

How the results depend on the processing

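The count of 21 called genes depended on the fit. It was 9 with no replicate block, 10 with an additive replicate block, 13 with unpaired culture ratios, 1 over all 27 libraries without a block, 7 with a pseudocount of 0.1, 28 with 5, 17 with TPM rescaled without mitochondrial RNA and Mir6236, 1 with quantile normalization and 14 over genes of at least 200 nt. It was 0 without a filter (3669 genes at an unadjusted p under 0.05) and 0 with median-ratio scaling (2171), and leaving out 1 replicate number gave 0 (without replicate 1, 2727) to 80. The stricter filter gave 731, and alternatives added after seeing the data gave 32 with rescaling, 139 with quantile normalization, 89 with median-ratio scaling, and 0 with no replicate block, which kept none of the 8 testable calls. Without replicate 1, 2 and 3 it gave 21, 1481 and 82, and each of these 3 fits kept all 8. The median shift was -0.20 and -0.10 with the 2 pseudocounts, -0.03 without a filter, -0.11 with rescaling, -0.03 with quantile normalization, 0.02 with median-ratio scaling, and -0.21 under the stricter filter with and without the block. Under it the median was -0.04 with quantile normalization, 0.00 with median-ratio scaling and -0.22 to -0.19 without 1 replicate number. The double knockdown gave 0 to 52 calls without 1 number. Where a change comes from fewer genes tested or fewer libraries, the construction shows it; for the rest the cause was not tested.

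Over 22 alternatives the list medians minus the all-gene median kept their sign for the laminin (0.49 to 0.72), surface receptor (0.28 to 0.54), ER (0.18 to 0.40), actin (-0.26 to -0.08), SR (-0.40 to -0.17) and hnRNP lists (-0.45 to -0.24) and for coding genes with both stretches (0.16 to 0.39). They changed sign for the presynaptic (-0.16 to 0.18) and ribosomal lists (-0.16 to 0.05). TPM keeps no depth, so the precision of low values, and of values listed at 0, is unknown.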
